A study of Mus musculus with 6 samples.

Results

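The replication-dependent histone genes were the 63 protein-coding genes, of 55487 genes in the table, whose names mark them as H1f1 to H1f5 or as clustered H2A, H2B, H3 or H4 genes. They comprised 5 H1, 17 H2A, 17 H2B, 12 H3 and 12 H4 genes, with 53 on chromosome 13 and 10 on chromosome 3, and the loci of all 63 matched GENCODE M21 on GRCm38. Their RNA was measured by bulk RNA sequencing in long-term hematopoietic stem cells, the bone marrow cells that renew the blood over a lifetime. Carnosine, a small peptide built from histidine and beta-alanine, had been given to the mice behind 3 of the libraries, and saline to the mice behind the other 3. All the mice were wild type and unirradiated, and the cells were sorted from bone marrow as Lineage-, Sca-1+, c-Kit+, Flk2-, CD34- cells. The comparison asks what carnosine changes in these cells in the absence of irradiation. No source used here gives the dose, the duration of treatment, the age of the mice, or whether each library came from its own mouse or from pooled mice, so the p-values may measure technical spread only.

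Replication-dependent histone genes supply the histones that package newly copied DNA, and their RNA is made mainly in S phase. H2A, H2B, H3 and H4 form the core of the nucleosome, and H1 binds the linker DNA between nucleosomes. Most of these messages end in a short conserved stem-loop instead of a poly-A tail. The stem-loop is bound by SLBP, and the RNA is cut downstream of it by a complex that contains the U7 small nuclear ribonucleoprotein. Polyadenylated forms of some of these genes are known, above all in cells that are not dividing. The libraries were made from RNA captured on poly-T beads, so the values below are levels of the histone RNA that remained after that capture, and the part of it that carried a poly-A tail was not tested.

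The stem-loop shows which gene models extend past the place where the message is normally cut. It was searched for in GENCODE M21 transcripts as a histone letter pattern of 6 stem bases, 4 loop bases and 6 stem bases. The pattern fixed some letters and did not require the stem arms to pair. A match was found in 42 of the 63 genes (66.7%), against 0.319% of 21951 protein-coding genes. It began 21 to 58 bases after the stop codon, with a median of 31. The 4 forms below are shown because they are the most common form of the H1, H2A, H2B and H3 genes, that of the H4 genes, and those of H2bc12, H3c3 and H4c11. The annotated transcript of H2bc4, which was also called, holds no match. The loop is in capitals.
Most common form, in 24 genes of the H1, H2A, H2B and H3 classes, H2ac6 and H3c14 among them: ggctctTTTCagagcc
Form with a changed loop, in H2bc12, H2bc3, H3c3, H3c6 and H3c7: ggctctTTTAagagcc
Most common form of H4 genes, in 6 genes including H4c4: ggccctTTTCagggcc
Form of H4c11 and H4c2: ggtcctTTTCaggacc
Of the 21 models without a stem-loop, 13 ended at the stop codon. The annotated transcript ran more than 100 bases past the stem-loop in 19 genes and 100 bases or less in 23.

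Promoters of these genes were compared through the RefSeq windows on GRCm38.p6 that run from 250 bases before to 50 bases after the start site, which 58 of the 63 genes had, in 59 windows. The letters CCAAT, on either strand, were in 86.4% of these windows and in 37.4% of all 32851 windows. By class they were in 100% of the H1, H2A, H2B and H3 windows and in 27.3% of the H4 windows. TATAAA was in 57.6% of histone windows and in 13.6% of all windows. The octamer ATTTGCAT, the core letters bound by POU2F1, was in 22.0% of histone windows against 1.74% of all. It was present in 35.3% of H2A windows and in 43.8% of H2B windows, and was found in none of the H1, H3 or H4 windows. Windows of neighbouring H2A and H2B genes that are transcribed away from each other can cover nearly the same bases. The same match of any of these motifs can therefore count in both classes. The octamer does not overlap the other motifs in its letters.

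The libraries held 12108727, 10442112 and 13251332 counts after carnosine, and 10386171, 10304539 and 13210166 counts after saline. Over all 15298 genes tested, 2738 (17.9%) passed an adjusted p of 0.05 in edgeR's quasi-likelihood test. Of these, 1455 were higher and 1283 lower after carnosine. The labelled gate was only partly met in RNA. Kit averaged 530 CPM (counts scaled to library size by edgeR's TMM factors) after carnosine and 546 CPM after saline, but the genes of the surface proteins used for exclusion were also high, with 775 and 818 CPM of Flt3, which encodes Flk2, and 861 and 857 CPM of Cd34. Of 13 stem cell and gate genes, 1, Mecom, was called, and it was higher after carnosine. Markers of other lineages moved with treatment. Erythroid markers summed to 509 to 534 CPM after carnosine and 390 to 400 CPM after saline, and 6 of 10 rose. Neutrophil and granulocyte progenitor markers summed to 455 to 472 CPM and 723 to 734 CPM, and 3 of 8 tested fell. B cell and plasma cell markers summed to 376 to 618 CPM and 181 to 253 CPM, where Jchain made up most of the sum, with 2 of 10 tested higher and 3 lower. T and NK cell markers summed to 82.2 to 85.4 CPM and 89.7 to 94.0 CPM, with 1 of 4 tested lower. Camp and Ms4a1 had 0 counts in at least 1 library, as did Cd3e, Cd3g and Ncr1. The part of these cell types in the histone values was not tested, and in bulk RNA fewer cells of a type and less RNA per cell cannot be told apart.

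The summed level of the 63 histone genes differed little between the groups. It was 800, 827 and 839 CPM in carnosine libraries and 811, 787 and 777 CPM in saline libraries. The means were 822 ± 19.6 and 792 ± 17.3 CPM (SD, n = 3 each), a ratio of 1.04, and the groups overlapped because the lowest carnosine library lay below the highest saline library. These sums were 0.0797% to 0.0835% of all counts after carnosine and 0.0776% to 0.0811% after saline. Without Hist1h2ao, the histone gene with the most counts, the sums were 556, 575 and 580 CPM after carnosine and 555, 547 and 524 CPM after saline. Those groups did not overlap, though 556 and 555 CPM nearly met, and the ratio was 1.05. By class, the H4 genes summed to 78.8, 78.5 and 78.8 CPM after carnosine and 73.7, 62.3 and 63.2 CPM after saline, a ratio of 1.19. The H2B genes summed to 140, 147 and 142 CPM after carnosine and 133, 137 and 137 CPM after saline, a ratio of 1.05. In both classes every carnosine library lay above every saline library. The H3 genes summed to 67.2, 67.1 and 73.8 CPM after carnosine and 56.5, 67.4 and 58.9 CPM after saline, and 1 saline library fell within the carnosine range. The H1 and H2A sums overlapped, with ratios of 1.02 and 0.999.

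**Figure D1:**
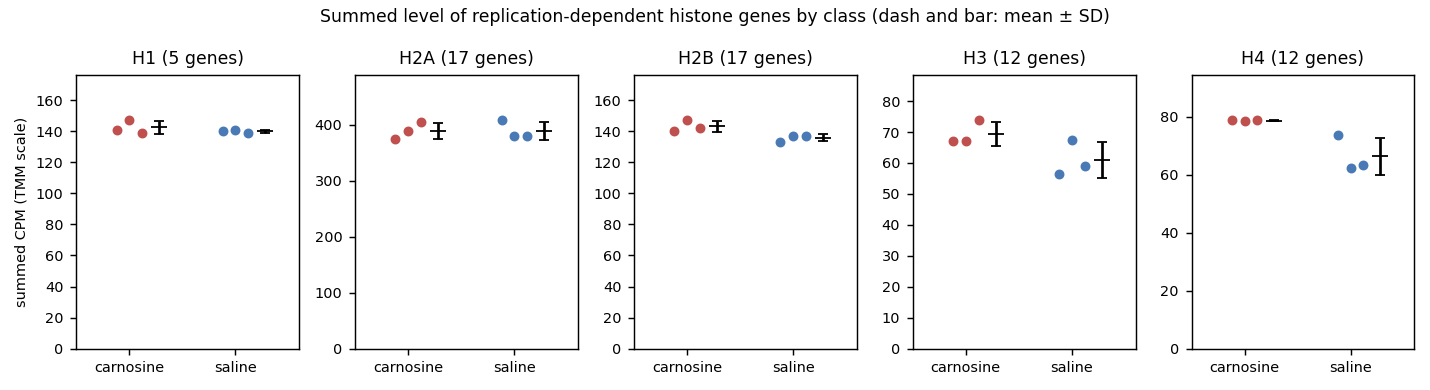
Summed CPM of the replication-dependent histone genes of each class (y axes, CPM on the TMM scale, each from 0), with a point for each of the 3 carnosine and 3 saline libraries and the mean ± SD beside them. The H4 and H2B points of the carnosine libraries all lie above those of the saline libraries, while the points of the other classes overlap.

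Of the 63 genes, 59 had enough counts to be tested. The 4 that did not were H2ac21, Hist1h2bp, and the divergent pair H2ac1 and H2bc1, which encode the testis histones TH2A and TH2B. H2ac1 had 0 counts in all 6 libraries, which allows up to 0.291 CPM in the shallowest library, and H2bc1 had 1 to 4 counts. In all, 6 of 59 histone genes (10.2%) were called, against 17.9% of all genes tested. H3c3, H2bc12, H2bc4 and H4c11 were higher after carnosine, 4 of 59, where 9.51% of all genes were higher. H2ac6 and H3c14 were lower, 2 of 59, where 8.39% of all genes were lower. Histone genes were mostly of low abundance here, and 48 of the 63 averaged under 100 counts per library. Among genes with an average log2 CPM under 4, 4 of 51 histone genes were called, against 9.79% of all such genes, with 3 higher (4.79% of all such genes) and 1 lower (5% of all such genes). The calls depended on single libraries. In edgeR, leaving out carnosine replicate 1, 2 or 3 gave 1, 2 and 4 called histone genes in that order. Without saline replicate 1 or saline replicate 3 there were 2, and without saline replicate 2 there were 0, with 15 at an unadjusted p under 0.05, as over all libraries. DESeq2 called 1, H3c14. Calls over all genes fell too, from 2738 to between 1753 and 1892 with a library left out and to 1536 with DESeq2.

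Most histone genes had a higher level after carnosine without passing the test. The log2 fold change (carnosine over saline) was above 0 for 44 of the 59, and for 50.2% of all genes tested. Its median was 0.16 over the histone genes and 0.00 over all genes, and 0.18 and -0.03 among those with a log2 CPM under 4. Every carnosine library was above every saline library for 15 of 59, where the share over all genes was 19.7%, and the reverse held for 4 of 59, where the share was 19%. By class the median log2 fold change was -0.03 for H1, 0.04 for H2A, 0.19 for H2B, 0.22 for H3 and 0.24 for H4, and 11 of the 12 H4 genes had a value above 0. Members share sequence and chromosome, so these counts are not counts of independent genes.

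**Figure D2:**
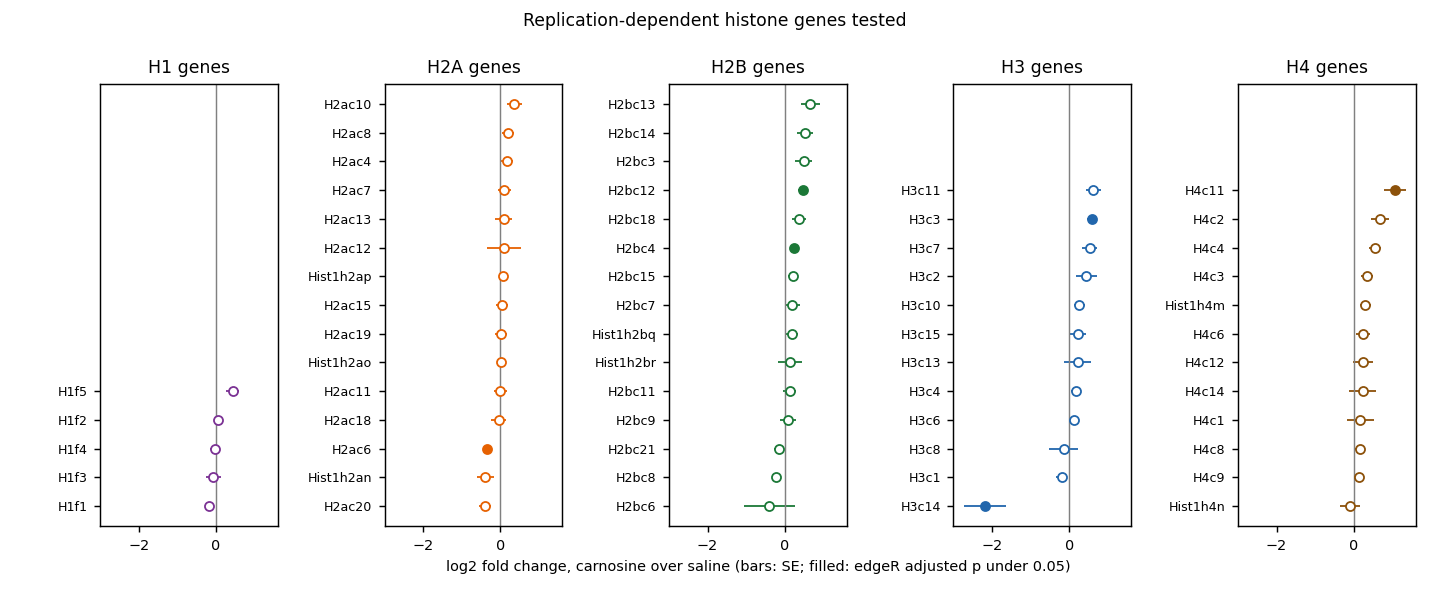
Log2 fold change, carnosine over saline, of the 59 histone genes tested (x axis; bars are the standard error), grouped by class, with filled points for an edgeR adjusted p under 0.05. In the H4 class 11 of 12 points lie right of 0, H4c11 farthest at 1.07, and H3c14 at -2.18 lies far left of all others.

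Linker histone genes did not pass the test. H1f2, the most abundant of them, had 98.6, 97.7 and 95.1 CPM after carnosine and 95.1, 95.2 and 93.2 CPM after saline. The lowest carnosine library fell just below the highest saline library, with a log2 fold change of 0.04 ± 0.04 (SE; edgeR test, adjusted p = 0.490). H1f5 had 8.62, 9.23 and 8.95 CPM after carnosine and 5.58, 5.83 and 8.26 CPM after saline. Its groups did not overlap, although saline replicate 3 came close to the carnosine libraries, and its log2 fold change was 0.43 (edgeR adjusted p = 0.117). Without that library it was 0.65 and was called (edgeR adjusted p = 0.0259). H1f1, H1f3 and H1f4 had log2 fold changes of -0.18, -0.07 and -0.03 with overlapping groups.

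The replication-independent linker histone H1f0, which accumulates in quiescent and differentiated cells and whose message is polyadenylated, rose beside them. Its level was 129, 139 and 139 CPM after carnosine and 101, 102 and 107 CPM after saline, so the groups were far apart, with a log2 fold change of 0.40 ± 0.05 (SE; edgeR test, adjusted p = 0.00133). Of the deposited FPKM, a scale per length, summed over 7 H1 genes, H1f0 was 35.7 ± 0.627% after carnosine and 30.4 ± 0.428% after saline (SD, n = 3 each). Such shares cover only RNA left after poly-A capture, and they depend on the length of each gene model. The ratio of H1f0 to H1f2 FPKM was 0.996, 1.08 and 1.11 after carnosine and 0.804, 0.815 and 0.872 after saline, without overlap. H1f2 was 33.7 ± 1.36% of H1 FPKM after carnosine and 36.6 ± 1.12% after saline, and H1f1 was 8.88 ± 0.492% and 11.3 ± 0.945% (SD, n = 3 each).

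**Figure D3:**
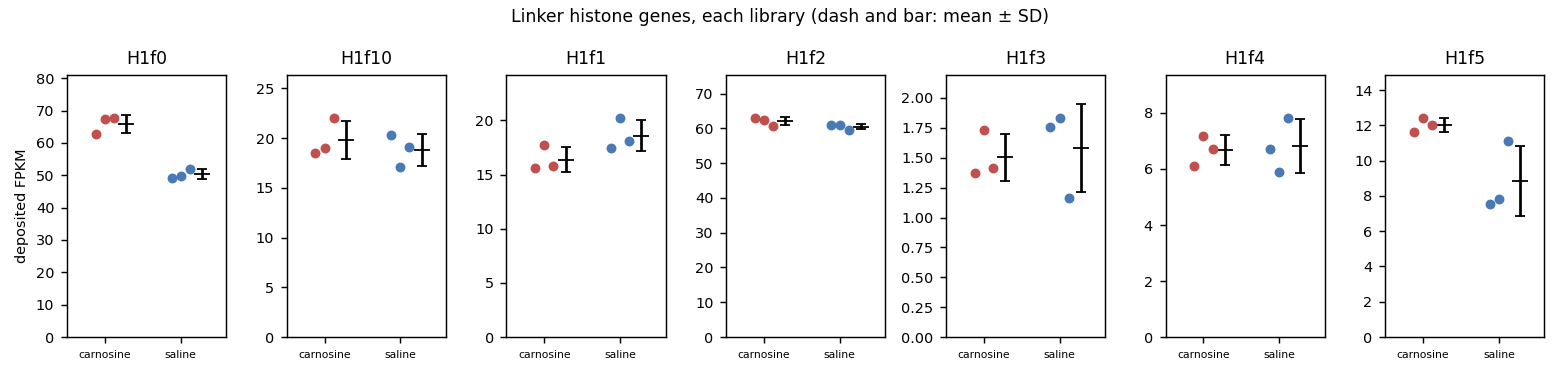
Deposited FPKM of the linker histone genes (y axes, each from 0) in the 3 carnosine and 3 saline libraries, with the mean ± SD beside the points. H1f0 is higher in every carnosine library (mean 65.9 against 50.2 FPKM), and H1f2 is nearly level (62.0 against 60.5 FPKM).

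Among H2A genes a near-identical pair held most of the RNA. Hist1h2ao had 508, 522 and 536 FPKM after carnosine and 534, 500 and 527 FPKM after saline, the highest level of any histone gene here, with overlapping groups and a log2 fold change of 0.01 ± 0.04 (SE). It gave 30.6 ± 0.195% of all histone counts after carnosine and 31.6 ± 1.05% after saline (SD, n = 3 each). Only 7.3% of its 100-base stretches occur in no other transcript, and 92.7% occur in Hist1h2ap, which had 92.8 ± 10.6 FPKM after carnosine and 88.7 ± 9.04 FPKM after saline (SD, n = 3 each). How the authors' counting divides reads between such copies is not stated in any source used here, so each copy's own level is uncertain. With both summed the log2 fold change was 0.02 ± 0.04 (SE; edgeR test, adjusted p = 0.783). H2ac18, the third most abundant H2A gene, had 24.2, 28.5 and 26.3 CPM after carnosine and 34.0, 29.8 and 18.6 CPM after saline, with overlapping groups. H2ac20 had 3.57, 2.98 and 3.11 CPM after carnosine and 3.94, 4.76 and 4.09 CPM after saline. These groups did not overlap, but H2ac20 was not called, at a log2 fold change of -0.40 (edgeR adjusted p = 0.124). H2ac10 was the reverse case, with 3.49 ± 0.669 CPM after carnosine and 2.74 ± 0.274 CPM after saline (SD, n = 3 each), without overlap and not called.

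H2ac6 was the H2A gene that fell. It had 15.3, 15.7 and 17.4 CPM after carnosine and 19.1, 21.9 and 20.9 CPM after saline. Every carnosine library lay below every saline library, and the log2 fold change was -0.35 ± 0.09 (SE; edgeR test, adjusted p = 0.0324). The gene lies on the minus strand of chr13:23681467-23683948, and its annotated transcript runs 2010 bases past the stem-loop. The call held without carnosine replicate 3 or without saline replicate 1. It was lost when any of the other 4 libraries was left out, with edgeR adjusted p-values of 0.0416 to 0.101 over the 6 fits.

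H2B genes held both directions, though only rises were called. H2bc12 had 10.4, 10.5 and 8.72 CPM after carnosine and 6.45, 7.57 and 7.20 CPM after saline, without overlap, and rose by a log2 fold change of 0.47 ± 0.13 (SE; edgeR test, adjusted p = 0.0388). Its call held only without carnosine replicate 3, and leaving out any of the other 5 libraries ended it, with edgeR adjusted p-values of 0.0384 to 0.109 over the 6 fits. Only 29.2% of the 100-base stretches of H2bc12 occur in no other transcript, and 62.1% occur in Hist1h2br, so its own level is uncertain. H2bc4 had 33.4, 31.9 and 30.5 CPM after carnosine and 25.8, 27.3 and 28.1 CPM after saline, without overlap. Its log2 fold change was 0.24 ± 0.07 (SE; edgeR test, adjusted p = 0.0496), just inside the threshold, and the call was lost when any of the 6 libraries was left out (0.0675 to 0.146). H2bc8, the H2B gene with the highest FPKM, leaned the other way, with 34.6, 38.8 and 33.6 CPM after carnosine and 40.1, 43.3 and 40.9 CPM after saline. Its groups did not overlap, and it was not called, with a log2 fold change of -0.22 ± 0.07 (SE; edgeR test, adjusted p = 0.0792), although it was called without carnosine replicate 2 (0.0474). The H2bc4 to H2bc8 count ratio was 0.966, 0.824 and 0.907 after carnosine and 0.643, 0.630 and 0.686 after saline. Its lack of overlap follows from H2bc4 being higher and H2bc8 lower in every carnosine library.

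Other H2B genes without overlap but not called were H2bc13, H2bc14 and H2bc15, with log2 fold changes of 0.66, 0.52 and 0.20. In that order, 37.9%, 93.4% and 47.9% of their 100-base stretches were their own. H2bc6 stood apart in 1 library, with 0.332, 6.83 and 6.75 CPM after carnosine and 5.77, 5.15 and 7.35 CPM after saline. Carnosine replicate 1 held 4 counts where the other libraries held 53 to 97. The locus overlaps H1f4, which had 11.9 CPM in that library and 11.4 to 15.1 CPM in the others. The log2 fold change of H2bc6 was -0.41 ± 0.66 (SE), and 0.14 without that library.

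Of 12 H3 genes, 1 rose and 1 fell (16.7% called), a share near the 17.9% of all genes tested, of which 9.51% were higher and 8.39% lower. H3c3 had 9.54, 9.71 and 11.4 CPM after carnosine and 7.79, 6.51 and 6.37 CPM after saline, without overlap. It rose by a log2 fold change of 0.58 ± 0.13 (SE; edgeR test, adjusted p = 0.0240), and 71.6% of its 100-base stretches were its own. The call was lost without carnosine replicate 3, saline replicate 2 or saline replicate 3, with edgeR adjusted p-values of 0.0284 to 0.0788 over the 6 fits. H3c11 and H3c7 also had carnosine libraries all above the saline libraries, at log2 fold changes of 0.62 and 0.52, and were not called (edgeR adjusted p = 0.0716 and 0.105). H3c10 and H3c1, which with H3c3 had the highest FPKM of the class, had log2 fold changes of 0.26 and -0.20 and overlapping groups. Only 31.4% of the 100-base stretches of H3c11 and 8.0% of those of H3c10 were their own.

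H3c14 was the histone gene that fell most, and its reads cannot be assigned to it alone. It had 10, 2 and 19 counts in carnosine libraries and 54, 49 and 27 counts in saline libraries. All carnosine libraries lay below the saline libraries, and the log2 fold change was -2.18 ± 0.55 (SE; edgeR test, adjusted p = 0.0333). It lies on the plus strand of chr3:96246685-96248509, and all of its 100-base stretches also occur in Gm20634, an annotated noncoding transcript that overlaps it. Gm20634 had 15, 54 and 13 counts after carnosine and 35, 54 and 102 counts after saline. Summed, the pair reached 2.07, 5.39 and 2.43 CPM after carnosine and 8.56, 10.0 and 9.78 CPM after saline, without overlap, and the sum fell (log2 fold change -1.55, edgeR adjusted p = 0.0152). With H2ac18 and H2ac19, which share most of their sequence with Gm20634 or with each other, also added, the 4 genes together had a log2 fold change of -0.25 ± 0.14 (SE; edgeR test, adjusted p = 0.253). H3c14 was joined to H2ac18 and H2ac19 only through Gm20634. Those genes averaged 307 and 96.2 counts per library, against 26.8 for H3c14, so this sum cannot show whether H3c14 fell. The call of H3c14 itself held without carnosine replicate 3 or saline replicate 3. It was lost without any of the other 4 libraries, with edgeR adjusted p-values of 0.0232 to 0.101 over the 6 fits.

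H4 genes all encode the same protein, and 5 of the 12 had every carnosine library above every saline library, which held for 19.7% of all genes tested. H4c11 had 2.49, 2.89 and 1.82 CPM after carnosine and 1.25, 1.36 and 0.834 CPM after saline, or 24 to 30 counts against 11 to 14. The groups did not overlap, and H4c11 rose by a log2 fold change of 1.07 ± 0.28 (SE; edgeR test, adjusted p = 0.0390). Its call held without carnosine replicate 3 and was lost without any of the other 5 libraries, with edgeR adjusted p-values of 0.0406 to 0.119 over the 6 fits. H4c4, whose sequence is shared with no other gene at this length, had 7.71, 6.35 and 7.13 CPM after carnosine and 5.48, 3.98 and 5.0 CPM after saline. That gene lay just outside the threshold without overlap, with a log2 fold change of 0.55 ± 0.16 (SE; edgeR test, adjusted p = 0.0502). H4c2, H4c3 and H4c6 also had every carnosine library above every saline library, with log2 fold changes of 0.67, 0.34 and 0.24, and were not called. The 3 H4 genes with the highest FPKM overlapped between groups. H4c9 averaged 35.9 ± 1.13 FPKM after carnosine and 33.0 ± 3.10 FPKM after saline, H4c8 19.2 ± 1.94 and 17.3 ± 1.88 FPKM, and Hist1h4m 19.8 ± 2.22 and 16.2 ± 2.04 FPKM (SD, n = 3 each).

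**Figure D4:**
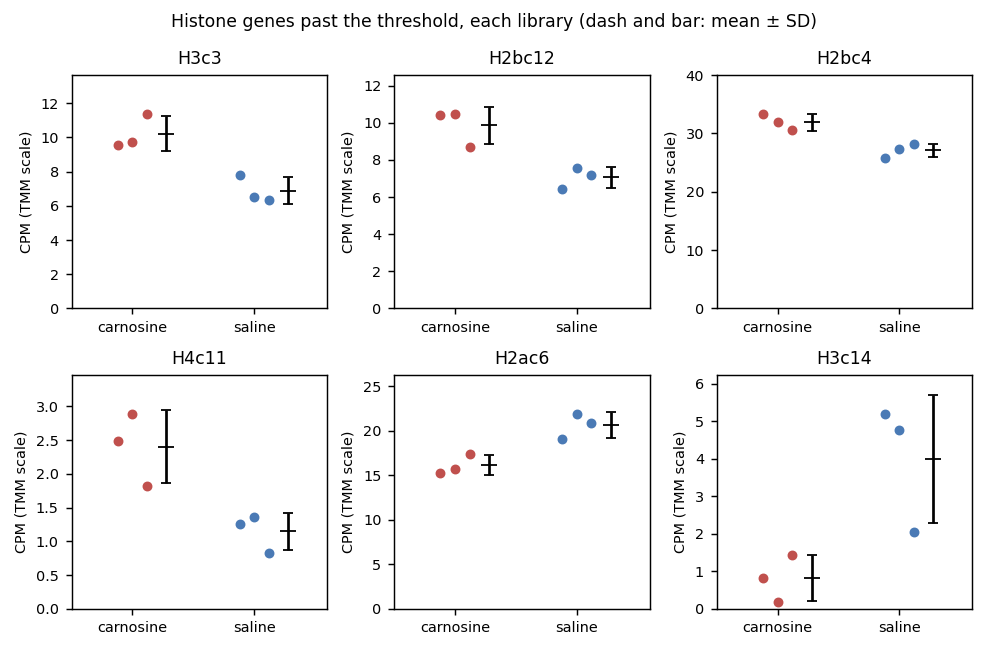
CPM (y axes, TMM scale, each from 0) of the 6 histone genes past the threshold in each library, carnosine left and saline right, with the mean ± SD beside the points. H3c3, H2bc12, H2bc4 and H4c11 are higher in every carnosine library, and H2ac6 and H3c14 are lower.

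H2ac6 and H2bc4 are neighbours that are transcribed away from each other, and they changed in opposite directions. Their starts lie 250 bases apart, and the count of H2ac6 over that of H2bc4 was 0.459, 0.491 and 0.572 after carnosine and 0.743, 0.801 and 0.743 after saline. No carnosine library reached the lowest saline library in this ratio, which follows from H2ac6 being lower and H2bc4 higher in every carnosine library. The stretch between them is shown because both genes start from it. It is 239 bases of GRCm38.p6 from RefSeq, chr13:23683960-23684198 on the plus strand, with H2ac6 to its left and H2bc4 to its right. In capitals are 3 matches of CCAAT, of which the first, ATTGG, is on the minus strand. A match of TATAAA on the minus strand, written TTTATA, and the octamer ATTTGCAT are also in capitals.
H2ac6 and H2bc4 shared start region: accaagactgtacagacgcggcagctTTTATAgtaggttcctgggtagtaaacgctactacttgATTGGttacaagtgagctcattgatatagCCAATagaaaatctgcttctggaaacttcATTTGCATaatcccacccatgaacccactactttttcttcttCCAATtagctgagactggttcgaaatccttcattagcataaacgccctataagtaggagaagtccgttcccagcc
Of 12 such pairs of an H2A and an H2B gene with starts under 500 bases apart, 10 had both genes tested. The log2 fold changes had the same sign in 7 of the 10 pairs and opposite signs in 3. The other pairs with opposite signs were H2ac8 with H2bc8 (0.20 and -0.22) and H2ac11 with H2bc11 (-0.01 and 0.12), where no gene was called. H2bc12 rose beside H2ac12, whose log2 fold change was 0.09 ± 0.43 (SE) at about 2 CPM.

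The groups of genes that share a stem-loop differed in their values. The 5 genes with the loop TTTA all had log2 fold changes above 0, with a median of 0.48, and 2 of them, H2bc12 and H3c3, were called. The 23 tested genes with the most common form had a median of 0.04, with 14 above 0, and their 2 calls, H2ac6 and H3c14, were lower. The 6 H4 genes with the common H4 form had a median of 0.27, and H4c11 and H4c2 had 1.07 and 0.67. Of all genes tested, 9.51% were called higher and 8.39% lower. These stem-loop groups were compared after their values were seen, and no test was made of the difference. The loop TTTA was found only in H2B and H3 genes, and the H4 forms in no other class. Stem-loop form and histone class were not separated here. Where the annotated transcript ran more than 100 bases past the stem-loop, 3 of 19 genes were called (15.8%, against 17.9% of all genes tested). H4c11 was higher, H2ac6 and H3c14 were lower, and the median log2 fold change of the 19 was 0.13. Where the transcript ran 100 bases or less past the stem-loop, 2 of 22 tested genes were called (9.09%) and the median was 0.14. Among the 25 genes with under 50% of their own 100-base stretches the median was 0.17, and among the 34 tested genes at 50% or more it was 0.16.

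Of 11 tested genes with polyadenylated forms known in mouse or human, 3 were called (27.3%, against 17.9% of all genes tested), namely H2bc4 and H2bc12 higher and H2ac6 lower (9.51% and 8.39% of all genes tested were higher and lower). The list was chosen with earlier results known, and the difference in share was not tested. The others included the histone genes H2aw, H2bu2 and H4f16, outside the clusters counted above, at log2 fold changes of 0.06, 0.16 and 0.14, and H2bc21 at -0.16 ± 0.13 (SE). The list summed to 242, 243 and 251 CPM after carnosine and 237, 236 and 237 CPM after saline, a ratio of 1.04.

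Of 46 tested genes that make, process or destroy histone messages, 8 passed (17.4%), 6 higher and 2 lower, a share near the 17.9% of all genes tested. SLBP, which binds the stem-loop, had the same level in both groups, with 86.5 ± 3.23 CPM of Slbp after carnosine and 86.7 ± 2.53 CPM after saline (SD, n = 3 each; edgeR adjusted p = 0.981). Npat, the cyclin E and CDK2 substrate that activates histone genes, had a log2 fold change of 0.05 ± 0.05, Casp8ap2 0.08 ± 0.05 and Hinfp, a regulator of H4 genes, 0.33 ± 0.24 (SE), and none of these 3 was called. Pcf11, a cleavage factor of polyadenylated messages, fell by 0.25 ± 0.03 on the log2 scale (SE; edgeR test, adjusted p = 0.000954). Tut7, a terminal uridylyltransferase that acts on histone RNA in human cells, fell by 0.37 ± 0.04 (SE; edgeR test, adjusted p = 0.00135). Among the 6 higher were Snrpe, an Sm protein gene shared by the U7 and spliceosomal particles, at 0.33 ± 0.06, and Ddx19b, an RNA helicase gene, at 0.30 ± 0.05 (log2 fold change ± SE). Without carnosine replicate 1 or carnosine replicate 3, 5 of the 46 were called, and without saline replicate 1 or saline replicate 3, 4 were.

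Among 12 replication-independent histone genes tested, H1f0, H2ax and Macroh2a2 rose and Macroh2a1 fell (33.3% called, against 17.9% of all genes tested). H2ax, whose phosphorylated protein marks DNA breaks, had a log2 fold change of 0.21 ± 0.04 (SE; edgeR test, adjusted p = 0.0196). Macroh2a2 had 12.1 ± 0.402 CPM after carnosine and 9.12 ± 0.327 CPM after saline (SD, n = 3 each; edgeR adjusted p = 0.0205), and Macroh2a1, far more abundant, differed by -0.06 ± 0.02 (SE; edgeR test, adjusted p = 0.0379). The call of H1f0 held without any 1 of the 6 libraries, while that of Macroh2a1 did not hold in any of those 6 fits (edgeR adjusted p = 0.0639 to 0.105). H2ax was not called without carnosine replicate 2, carnosine replicate 3 or saline replicate 3 (edgeR adjusted p = 0.0619, 0.0559 and 0.0581). Macroh2a2 was called without saline replicate 3 and lost without any of the other 5 libraries (edgeR adjusted p = 0.0512 to 0.0619). The H3.3 genes H3f3a and H3f3b had log2 fold changes of 0.09 and -0.10, and H2az1 and H1f10 had -0.20 and 0.08, none of them called. H3f3b was called at -0.16 without saline replicate 2. Replication-independent genes summed to 5.06, 4.94 and 4.89 times the replication-dependent CPM in carnosine libraries and to 5.09, 5.12 and 5.39 times in saline libraries, without overlap.

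Most genes of the S phase list rose. Of 30 S phase genes tested, 19 were called (63.3%, against 17.9% of all genes tested), all of them higher, with a median log2 fold change of 0.23. Pola1, the catalytic subunit of DNA polymerase alpha, had 234 ± 2.93 CPM after carnosine and 170 ± 2.22 CPM after saline (SD, n = 3 each; edgeR adjusted p = 6.81e-05). Rrm1, a subunit of ribonucleotide reductase, Ccna2, the S phase cyclin A2, and Mcm7, of the replicative helicase, had log2 fold changes of 0.43, 0.48 and 0.31. The median log2 CPM was 6.47 over the S phase list and 2.47 over the histone genes. The difference between the lists, and the part of depth in it, was not tested. Histone chaperones were called in 16 of 34 cases (47.1%, against the same 17.9%), with 12 higher and 4 lower. Supt16 of the FACT complex (0.44 ± 0.03), the H2A-H2B chaperone Nap1l1 (0.34 ± 0.03), the H2A.Z chaperone Anp32e (0.37 ± 0.04) and nucleolin, Ncl (0.19 ± 0.02), all rose (log2 fold change ± SE).

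**Figure D5:**
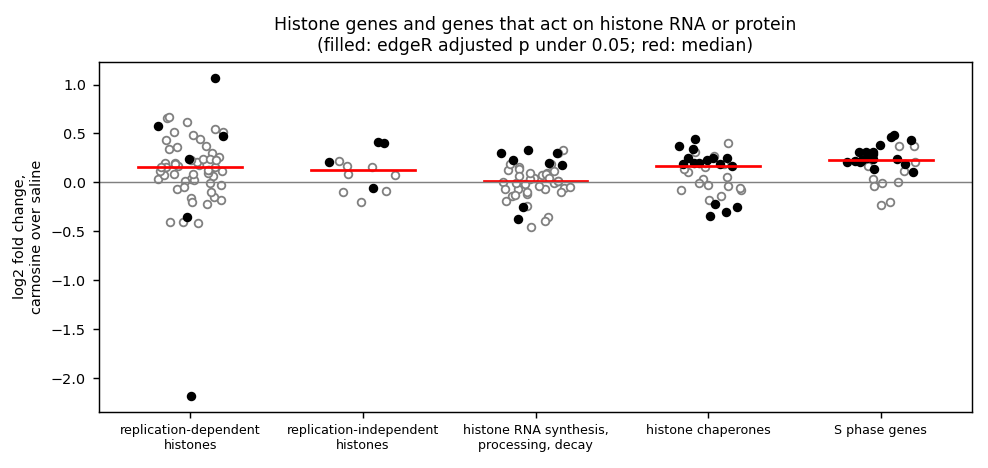
Log2 fold change, carnosine over saline (y axis), of each tested gene in the replication-dependent histone genes and 4 related lists, with filled points for an edgeR adjusted p under 0.05 and red lines for the medians. Filled points are 6 of 59 for the histone genes and 19 of 30 for S phase genes, while the medians are 0.16 and 0.23.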

How the data were processed

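Per the labels' protocols, total RNA with an integrity number above 7.0 was poly-A selected and made into stranded paired-end libraries. Tools named in the submitters' processing notes are HISAT2, StringTie, edgeR and CASAVA 1.8, with the build GRCm38. No source used here states the strand setting, the annotation release or the treatment of multi-mapping reads. The authors deposited, per the file headers, a raw count and an FPKM value for each gene in each library, and both were used unchanged.

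Counts were scaled by TMM (factors 0.9977 to 1.0035), filtered with filterByExpr on the group (15298 genes kept) and tested over the whole table with the two-sided quasi-likelihood test of edgeR 4.0.16 in R 4.3.3, with Benjamini-Hochberg adjustment. An adjusted p under 0.05 is a call. CPM are on the TMM scale. A library's 3 counts, the limit that a count of 0 allows, are 0.227 to 0.291 CPM, and cover counting error only. Libraries of a group differed by more than counting noise (chi-square per gene of 5.19 to 6.34). Gene models are those of GENCODE M21. The fits recovered large known changes in simulated counts. The simulation gave every gene the same spread, so it does not show how well small changes of the histone genes are called.

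The gene set and lists were chosen with earlier results of these data known. Named are histone genes that were called, the 3 with the highest FPKM in each class, those with at least 20 counts on average whose groups do not overlap, those with known polyadenylated forms, up to 4 genes of smallest p in each list, and a fixed set of regulators and variants. Other genes were named beside these after their values were seen. Alternatives were other scalings and filters, DESeq2 1.42.0, limma-voom (limma 3.58.1), limma on log2(FPKM + 1) and log2(FPKM + 0.1), a replicate block and leaving out each library. Summing near-identical copies was added after seeing the data.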

Additional observations from a re-analysis of the deposited data

How the results depend on the processing

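Among the named genes, direction changed less often than the calls. Many of them were named for a call, a small p or groups without overlap, so their direction had little room to change. Of 981 values of 58 named genes under other settings, 892 kept direction and side of the threshold, 67 kept direction but lost the call, 8 gained one and 14 changed sign. The histone genes called, 6 as reported, were 3 with no filter, 1 with DESeq2 (H3c14) and 0 to 4 with a library left out. The 0 was without saline replicate 2 in edgeR, where 15 had an unadjusted p under 0.05. Limma-voom called 4, and limma on log2 FPKM called 8. The median log2 fold change was 0.10 to 0.21 with a library left out, lowest without carnosine replicate 3, and 0.11 to 0.17 under the other settings. Over all genes DESeq2 called 1536 and leaving out a library 1753 to 1892. Replication-independent histones called were 2 with DESeq2 and 1 to 3 with a library left out, and histone RNA processing genes 5 and 4 to 9. Why the counts moved was not tested.

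Same-numbered libraries did not deviate together (correlations of -0.05, -0.07 and 0.02). The labels state no pairing, and with 3 libraries per group this check cannot exclude a shared day or batch. With the replicate number as a block, 1756 genes were called, 1 histone gene (H4c11) and 1 replication-independent histone.

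Signs changed for 7 genes, none of them called. With a library left out, log2 fold changes ran from -0.28 to 0.13 for H2ac18, -0.83 to 0.14 for H2bc6, -0.04 to 0.17 for H2aw, -0.04 to 0.32 for H4f16, -0.02 to 0.03 for Hist1h2ao, -0.02 to 0.16 for Hist1h2ap and -0.02 to 0.03 for Slbp. H2ac18 was also 0.02 with limma-voom and Slbp 0.01 with no filter. Of the 63 histone genes, 48 averaged under 100 counts, and the part of depth in the calls was not tested. Summing near-identical copies, which hold 12 histone genes, left 5 called. Only H3c14 was lost, and its counts were there added to those of the more abundant H2ac18 and H2ac19.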
